A study of Mus musculus with 39 samples.

Results

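The voltage-gated sodium channel genes of the lung are described here: 6 genes for pore-forming subunits (Scn1a, Scn2a, Scn3a, Scn4a, Scn7a and Scn8a) and 2 genes for auxiliary beta subunits (Scn3b and Scn4b). The members were listed by symbol because voltage-gated sodium channels are the target of pyrethroid insecticides, and no difference between groups entered the rule. Being listed does not mean that a gene encodes such a target itself. Of the 8 genes, 7 have a probe set annotated to their symbol alone, 20 probe sets in all, among 18193 genes named in this way. Scn4a, the pore subunit of skeletal muscle, has none and was not analysed here. Where a gene had several, the rule took the brightest on average over the 39 arrays to stand for it, which uses its signal but not the groups.

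Lungs came from 39 female mice of the outbred stock Crlj:CD1(ICR), each on its own Affymetrix array. The mice ate powdered diet with permethrin at 5000 or 10000 ppm, with isoniazid at 2500 ppm, or with neither, for 7 days (age 11 weeks) or 14 days (age 12 weeks). That gives 8 groups of 5 animals, except permethrin 10000 ppm for 14 days with 4. Permethrin is a pyrethroid, and isoniazid, an antituberculosis drug, is named in the labels as a positive control. Whole lung was used, so fewer cells of a type and less RNA per cell cannot be told apart, and age cannot be told apart from duration.

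Voltage-gated sodium channels are membrane proteins whose pore subunit opens on depolarization and lets sodium into the cell, which starts the action potential of nerve and muscle. Pyrethroids bind the pore subunit and hold the channel open. Beta subunits cross the membrane once, carry an immunoglobulin-like domain, and adjust how the pore opens and where it sits. In lung, excitable cells are few: nerve fibres, the heart-type muscle around pulmonary veins, and neuroendocrine cells.

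By the brightest probe set of each gene, Scn7a, Scn3a and Scn3b were measured above background in the lungs of all 39 animals. Scn1a, Scn2a and Scn8a were so in few or none. Of the genes above background in all animals, Scn3b encodes a beta subunit and Scn7a an atypical channel that senses extracellular sodium. Against control, Scn3b passed the threshold in 1 comparison and the other tested genes in none: it fell after 7 days of isoniazid. That call was near the threshold. It was lost in 7 of 10 fits that left out 1 animal and in 4 of 11 other settings. In a test for any difference among the 8 groups, which differ in duration and age as well as diet, Scn3b passed. In a separate run each of 27022 probe sets above a filter on low signals counted as a test. There both other probe sets of Scn7a passed, but not its brightest. No sodium channel gene passed the threshold with permethrin at either dose or time. Values are log2 of the quantile-normalized array signal, and the threshold is an adjusted p of 0.05 from limma, with the Benjamini-Hochberg adjustment over the 13020 genes tested.

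As no detection calls were used, signals were set against those of 80 probe sets of olfactory and vomeronasal receptors, genes of the nose. On each array the 95th percentile of their log2 signals served as a background limit, which lay between 3.23 and 4.15 across arrays. The limit describes signal over background and is no test of detection. By the brightest probe set of each gene, Scn7a, Scn3a and Scn3b lay above it on 39 of 39 arrays, Scn4b on 27, Scn2a on 8, Scn1a on 2 and Scn8a on 0. With the 90th percentile as limit the last 4 lay above it on 32, 15, 7 and 2 arrays. The second probe set of Scn3a lay above the 95th percentile on 0 arrays, so the reading of that gene rests on its brightest. Levels of different genes were not ranked, since each probe set binds its target with its own strength.

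The label of the tissue held against its markers. All measured markers of alveolar type 1 cells (8 of 8), alveolar type 2 cells (7 of 7), club cells (6 of 6) and ciliated cells (6 of 6) were among the genes tested. Heart-type muscle was also present, with 16 of 16 cardiac markers tested. Markers of liver (10 of 12) and brown fat (6 of 7) were among the genes tested as well. For neurons 5 of 14 markers passed the filter on low signals, for Schwann cells, the glia of nerves, 5 of 8, for skeletal muscle 3 of 12 and for pulmonary neuroendocrine cells 2 of 8. Above the background limit on 0 arrays were Nefl and Nefm of the neurons, Pmp2 of the Schwann cells, Myh4 and Actn3 of skeletal muscle, and Scg2 and Insm1 of the neuroendocrine cells. Above it on all 39 arrays were Stmn2, Rbfox3 and Gap43 of the neurons, and Mbp and Mal of the Schwann cells. So were Ckm of skeletal muscle, and Ddc and Cplx2 of the neuroendocrine cells. RNA integrity differed between animals: in 7 arrays, all at 14 days, the log2 ratio of the 3' to the 5' Gapdh control probe sets, which is higher in degraded RNA, exceeded 0.7.

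Of the pore subunits, Scn7a encodes an atypical channel that senses extracellular sodium. Opening on depolarization and binding of pyrethroids, as described above for the family, are not claimed for it. In the 7-day controls its log2 signals were 10.33, 9.81, 10.16, 10.50 and 10.15, and after 7 days of isoniazid they were 9.94, 9.97, 9.42, 9.76 and 10.13. Both groups overlapped, although all 5 treated animals lay below the control mean. The log2 difference was -0.35 (SE 0.16, 95% confidence interval -0.68 to -0.03), with an unadjusted p of 0.0339 and a limma adjusted p of 0.716, so it did not pass the threshold.

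With permethrin the Scn7a signals overlapped those of the controls. After 7 days the group means were 10.30 at 5000 ppm (SD 0.27, n = 5) and 10.30 at 10000 ppm (SD 0.38, n = 5), against 10.19 in controls (SD 0.26, n = 5). The log2 difference was 0.11 at each dose, and its intervals ran from -0.22 to 0.43 and from -0.21 to 0.44. After 14 days the means were 9.90 in controls, 9.79 at 5000 ppm, 9.90 at 10000 ppm and 9.82 with isoniazid (SD 0.17, 0.23, 0.31 and 0.20), and the groups overlapped.

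Scn7a has 3 probe sets above background on every array. After 7 days of isoniazid they gave log2 differences of -0.35, -0.40 and -0.37, which is close for probe sets read separately. After 14 days they disagreed in size: with isoniazid the differences were -0.08, -0.59 and -0.27, and with permethrin 5000 ppm they were -0.11, -0.51 and -0.38. The smallest adjusted p among these, over every probe set, dim ones included, was 0.770, for the isoniazid difference of -0.59 (SE 0.21).

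The median signals of Scn7a were lower at 14 days than at 7 days. The median log2 signal of the representative probe set was 10.16 in the 20 animals of the 7-day groups and 9.83 in the 19 animals of the 14-day groups. For the other probe sets the medians were 10.26 and 9.56, and 6.89 and 6.23. Ranges of both durations overlapped for all 3 probe sets, and the difference between durations was not tested on its own. Without the 7 arrays of high Gapdh ratio, the 14-day medians were 9.80, 9.59 and 6.28. The median of the fibroblast score, the mean log2 signal of 13 fibroblast markers, was 10.29 at 7 days and 10.07 at 14 days. The median cardiac muscle score was 8.52 and 7.88, and the median Schwann cell score 4.06 and 3.85. The part of these scores in the Scn7a values was not tested.

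**Figure D1:**
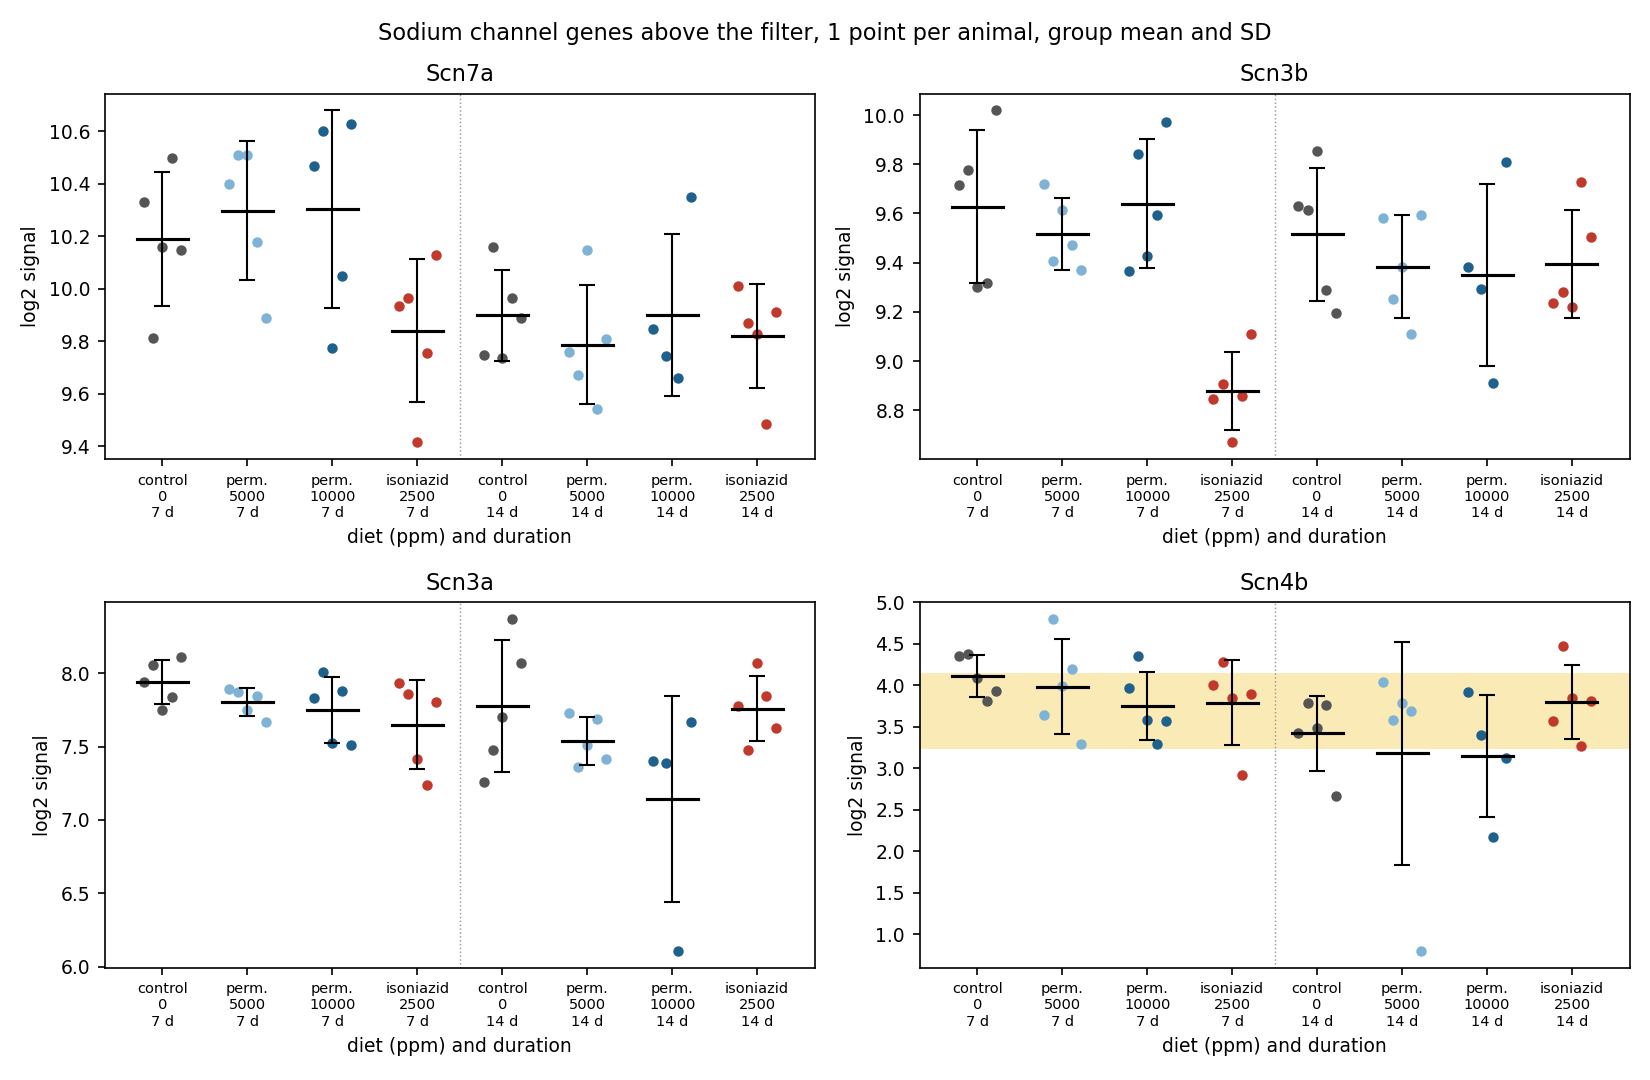
Log2 signal (vertical axis) of Scn7a, Scn3b, Scn3a and Scn4b in each of the 39 animals by diet and duration (horizontal axis), with bars for group mean and SD. The shaded band in the Scn4b panel is the range of the background limit over arrays, 3.23 to 4.15; the Scn3b signals of the 5 animals with isoniazid for 7 days lie below those of their 5 controls.

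Scn3a, a pore subunit best known from the embryonic nervous system, gave a steady signal in most groups. Its group means at 7 days were 7.94 in controls, 7.80 and 7.75 at permethrin 5000 and 10000 ppm, and 7.65 with isoniazid. At 14 days they were 7.78, 7.54, 7.14 and 7.76 in the same order. The lowest mean belonged to permethrin 10000 ppm for 14 days.

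In that group the 4 log2 signals of Scn3a were 7.40, 7.39, 6.11 and 7.67, against 7.26, 7.48, 7.70, 8.37 and 8.07 in the controls. The groups overlapped, and 1 animal, replicate 3, lay below all 38 other arrays. The log2 difference was -0.63 (SE 0.21, 95% confidence interval -1.06 to -0.21), with an unadjusted p of 0.0044 and a limma adjusted p of 0.472. It was -0.29 without replicate 3, whose array is among the 7 of high Gapdh ratio, and 0.01 without all 7, which also include control replicates 4 and 5. Over both durations the difference at 10000 ppm was -0.41 (SE 0.14, adjusted p = 0.411), and -0.09 without the 7 arrays. The second probe set of Scn3a, with a mean log2 signal of 0.71, was above the background limit on 0 arrays. The probe sets thus disagree on detection, and the second gives no second reading of the differences.

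Scn1a, Scn2a and Scn8a are the main pore subunits of neurons in the brain. All 3 lay below the filter on low signals, a mean log2 signal of 3.43, and their values are described without a place in the main test. Scn1a ran from -1.56 to 3.82 over the 39 animals, Scn2a from 1.68 to 3.89 and Scn8a from -1.83 to 3.60. The SD within groups was 1.41 for Scn1a and 1.49 for Scn8a, and 0.51 for Scn2a, so that changes of about that size could not be resolved at this signal. None of the 5 probe sets of Scn8a was above the background limit on any array.

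Of these dim genes Scn2a had the most arrays above the limit. Its 7-day controls had log2 signals of 3.76, 3.17, 3.60, 3.33 and 3.56, and its 14-day controls 2.81, 2.95, 2.56, 2.40 and 1.71. At 14 days of permethrin 10000 ppm the values were 3.34, 3.89, 2.71 and 3.23, which overlap the controls of that time. When every named gene was tested, this difference was 0.81 (SE 0.36, limma adjusted p = 0.733), and none of the 3 genes passed the threshold in any comparison. The smallest unadjusted p among them was 0.0118, for the change of the Scn2a difference at 10000 ppm from 7 to 14 days (1.33 on the log2 scale, SE 0.50, adjusted p = 0.9999).

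**Figure D2:**
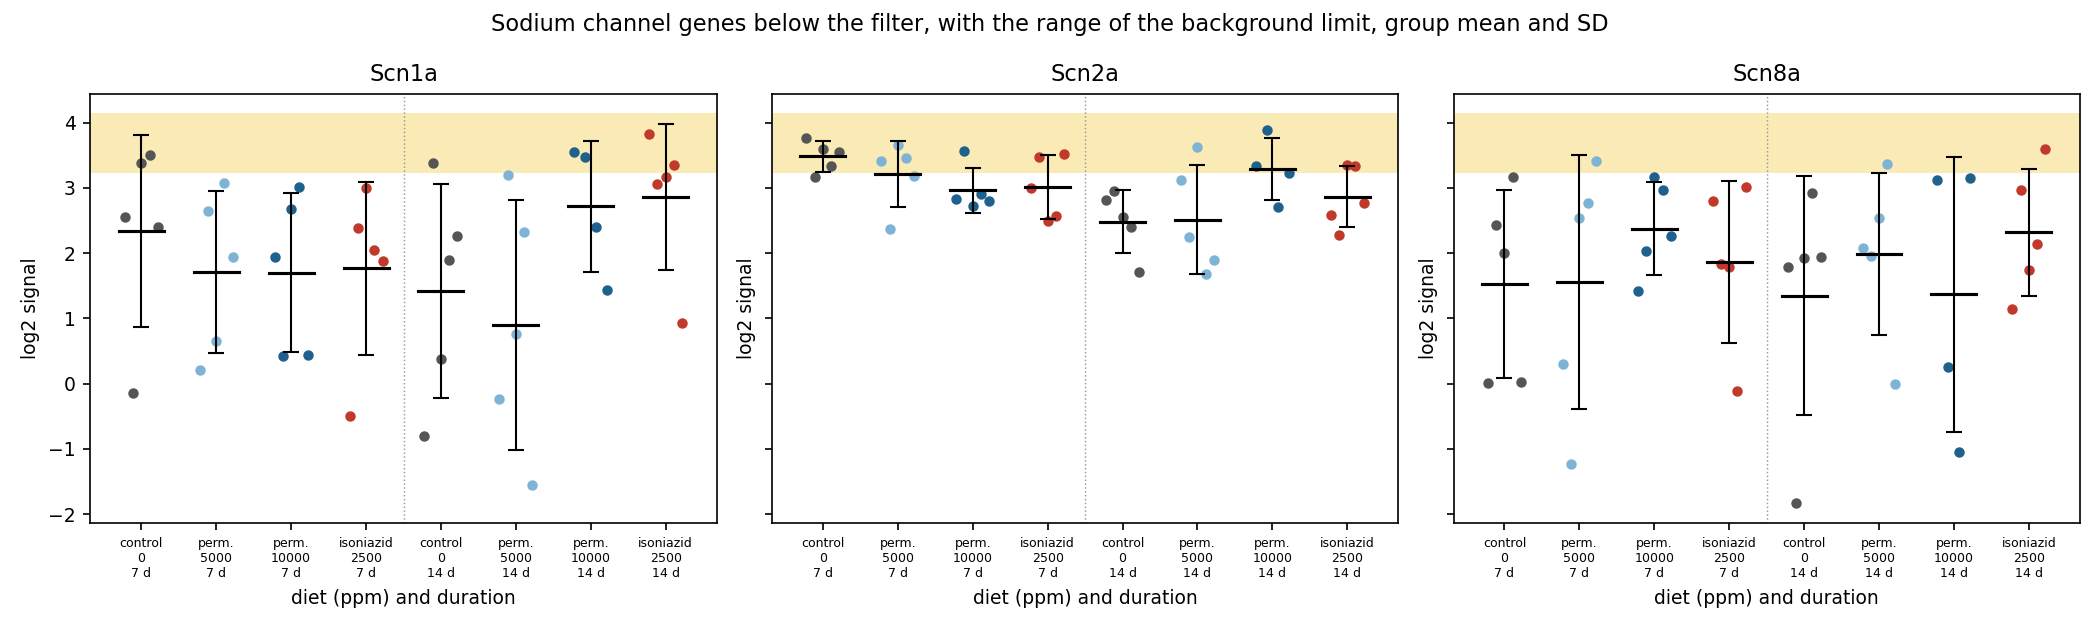
Log2 signal (vertical axis) of Scn1a, Scn2a and Scn8a in each animal by diet and duration (horizontal axis), with bars for group mean and SD. Most points lie below or within the shaded range of the background limit, 3.23 to 4.15.

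Scn3b, the beta3 subunit, was the tested gene of the family that passed the threshold against control. Its log2 signals after 7 days of isoniazid were 8.85, 8.91, 8.67, 8.86 and 9.11, and those of the 7-day controls were 9.72, 9.78, 9.30, 9.32 and 10.02. All treated animals lay below all controls. The mean fell by 0.75 on the log2 scale (SE 0.15, 95% confidence interval -1.06 to -0.44, limma adjusted p = 0.0377), from a signal of 791 to 470 as geometric means, a ratio of 0.595. In that comparison 1 of the 4 tested sodium channel genes was called, while 0.0461% of all genes tested were.

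The 6 genes called with isoniazid at 7 days were Alas1, Cyp1a1, Ppp1r3c, Selenbp1, Scn3b and Mt1, in order of p. The other 5 were named after their values were seen. Alas1, the first enzyme of heme synthesis, had a log2 difference of 0.99 (SE 0.13), and Ppp1r3c, a glycogen-targeting subunit of protein phosphatase, had one of -0.88 (SE 0.16).

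The second probe set of Scn3b, above the background limit on all 39 arrays, gave a log2 difference of -0.73 (SE 0.23) in the same comparison. Adjusted over every probe set, dim ones included, the p was 0.788 for this probe set and 0.0933 for the representative one, which had 0.071 over the probe sets above the filter. The sizes were alike, and neither probe set passed when probe sets were counted as tests.

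The call of Scn3b was near the threshold. Leaving out 1 of the 10 animals at a time ended it in 7 of 10 cases, with adjusted p between 0.089 and 0.206; these were control replicates 1, 2 and 5 and isoniazid replicates 1, 2, 3 and 4, and the difference stayed between -0.83 and -0.65. The deposited scaling without quantile normalization gave -0.73 (adjusted p = 0.0961), centring each array on its median -0.68 (adjusted p = 0.737), and a fit of the compared groups alone an adjusted p of 0.109. With the cardiac and liver scores of each array as covariates the difference was -0.79 (adjusted p = 0.0326).

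Beside this result, the mean log2 signal of the fibroblast markers was 10.13 with isoniazid at 7 days (SD 0.14, n = 5) and 10.38 in controls (SD 0.15, n = 5), with ranges of 9.98 to 10.29 and 10.26 to 10.57 over 13 of 13 markers. An exact two-sided permutation test gave p = 0.0635, which is 0.435 after adjustment over 48 such tests, and the smallest p it allows is 0.00794. The Schwann cell scores were 4.15 and 4.17, and the cardiac scores 8.32 and 8.60. Fibroblast markers were not alone in differing. With isoniazid and in controls the ciliated cell score was 8.295 and 7.995, and the macrophage score 8.70 and 8.45. The skeletal muscle score was 3.26 and 2.78, and the liver score 5.075 and 5.97. None of the 7 arrays of high Gapdh ratio belongs to either group. The part of the fibroblast, ciliated cell, macrophage and skeletal muscle scores in the Scn3b result was not tested.

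At 14 days no such gap was seen for Scn3b. With isoniazid the log2 signals were 9.24, 9.28, 9.22, 9.73 and 9.51, and in controls 9.63, 9.61, 9.85, 9.29 and 9.19. The groups overlapped, with a difference of -0.12 (SE 0.15, adjusted p = 0.959). The isoniazid difference itself moved by 0.63 between 7 and 14 days (SE 0.21, 95% confidence interval 0.20 to 1.06, unadjusted p = 0.00567), but the limma adjusted p of 0.9996 does not show that the durations differ. As a mean of both durations it was -0.44 (SE 0.11, adjusted p = 0.0564).

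With permethrin the Scn3b signals overlapped those of the controls in each comparison. Group means at 7 days were 9.52 at 5000 ppm (SD 0.15, n = 5) and 9.64 at 10000 ppm (SD 0.26, n = 5), against 9.63 in controls (SD 0.31, n = 5). At 14 days they were 9.38 (SD 0.21, n = 5) and 9.35 (SD 0.37, n = 4), against 9.52 (SD 0.27, n = 5). The 4 log2 differences ran from -0.17 to 0.01, and their 95% confidence intervals lay between -0.49 and 0.32. The second probe set gave 0.12 at each dose after 7 days, and -0.16 and -0.52 at 5000 and 10000 ppm after 14 days. The last of these (SE 0.25, unadjusted p = 0.0412, limma adjusted p = 0.887 over every probe set) is larger than the -0.17 of the representative probe set, and neither passed the threshold.

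**Figure D3:**
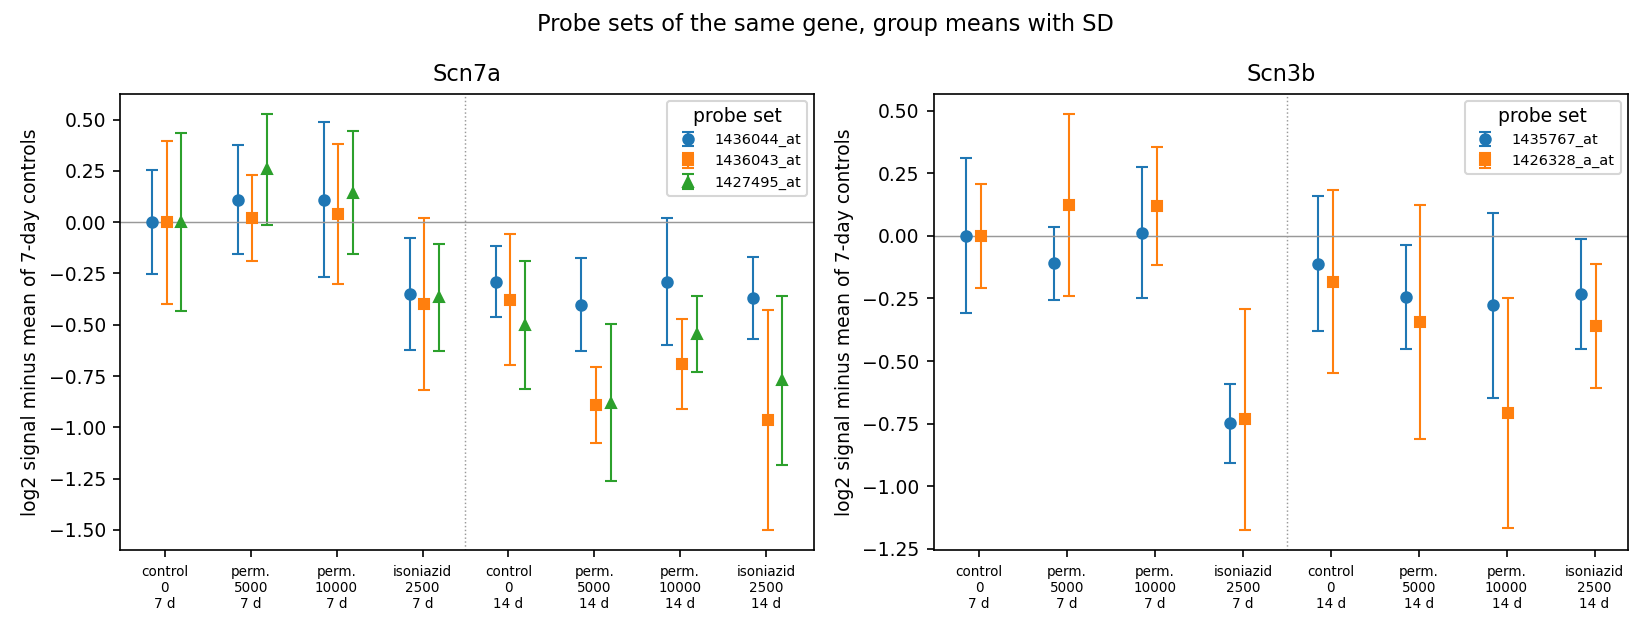
Group means of each probe set of Scn7a and Scn3b above background, as log2 signal minus the mean of its own 7-day controls (vertical axis), by diet and duration (horizontal axis), with bars for SD over animals. After 7 days of isoniazid the Scn3b probe sets sit at -0.75 and -0.73, and at 14 days the 3 Scn7a probe sets spread apart.

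Scn4b, the beta4 subunit, which binds the pore subunit through a disulfide bond, had a signal close to background. Its 7-day controls were at 4.35, 4.38, 4.08, 3.80 and 3.93, and its 14-day controls at 3.42, 3.78, 3.48, 3.76 and 2.66. The 6 differences from control lay between -0.36 and 0.37, each with an SE of 0.41 to 0.44, and each interval spans 0. At permethrin 5000 ppm for 14 days 1 animal, at 0.80, lay apart from the others, at 3.58 to 4.04, and its array is among the 7 of high Gapdh ratio. The difference of that group was -0.24 with this animal and 0.35 without it (SE 0.32), and 0.24 without the 7 arrays, so its direction rests on 1 animal.

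**Figure D4:**
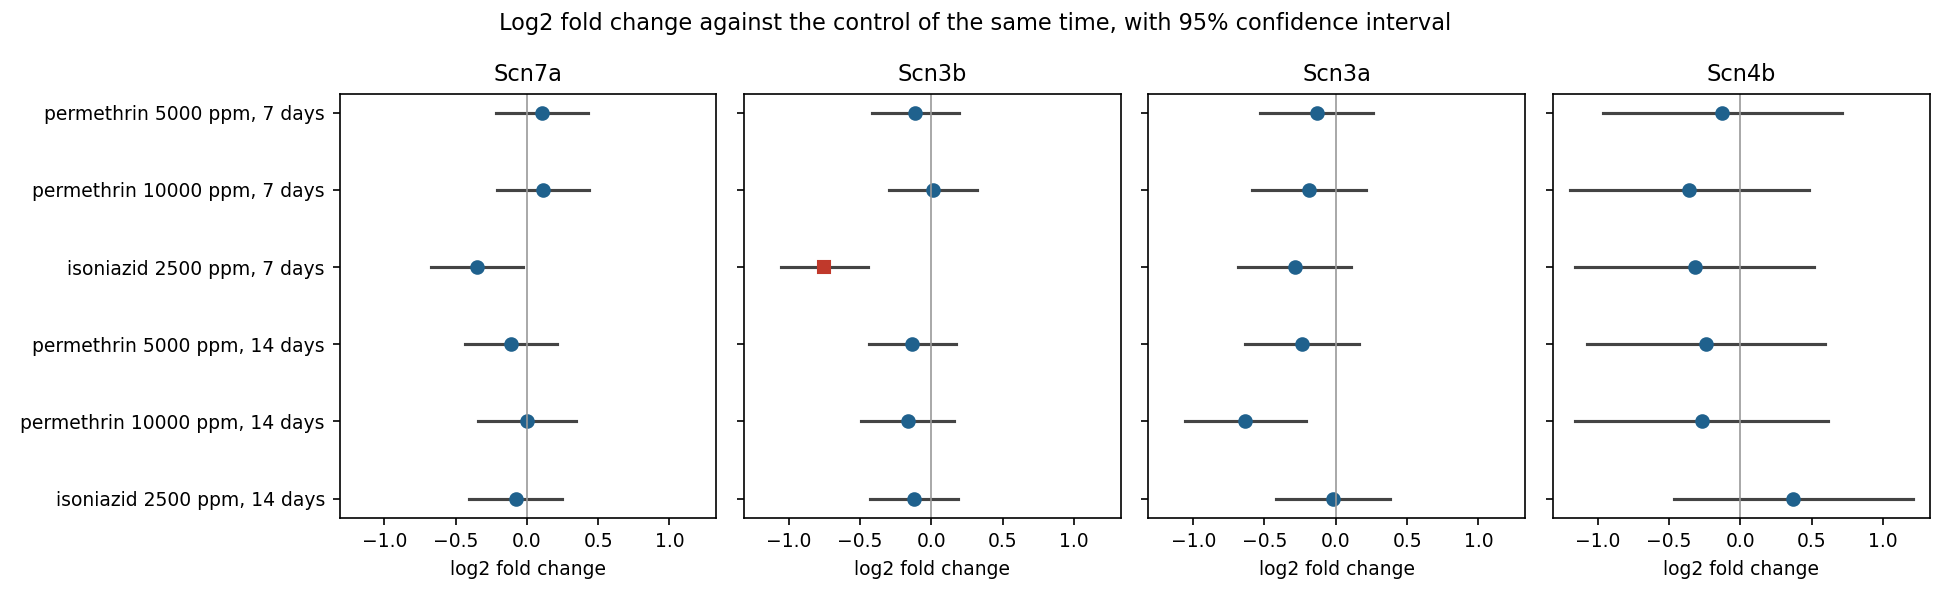
Log2 fold change (horizontal axis) of each tested sodium channel gene against the control of the same duration, for each diet and duration (vertical axis), with 95% confidence intervals from limma. The red square, Scn3b with isoniazid at 7 days, is the value past the threshold (-0.75); all other points are blue and not past it.

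Counted over the 4 tested genes, permethrin called 0 in each comparison with limma, and isoniazid called 1 at 7 days and 0 at 14 days. For permethrin at 7 days, 0.0922% of all genes tested were called at 5000 ppm and 0.238% at 10000 ppm, and 0 of the 4 had an unadjusted p under 0.05 at either dose. At 14 days the shares of all genes were 0.131% and 0.215%, and 0 and 1 of the 4 (Scn3a) had an unadjusted p under 0.05. For isoniazid at 14 days the share was 0.0307%, with 0 of 4 genes under 0.05 unadjusted. The median log2 difference of the 4 genes was -0.12 and -0.09 for the permethrin doses at 7 days, -0.34 for isoniazid at 7 days, and -0.18, -0.22 and -0.05 for the same diets at 14 days. The median of all genes tested lay between -0.01 and 0.02 in these comparisons, which share their controls within a duration.

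Over the mean of both durations 0 of 4 genes were called for any diet. The shares of all genes called were 0.223% for permethrin 5000 ppm, 0.499% for 10000 ppm and 0.392% for isoniazid, and 0, 1 (Scn3a) and 1 (Scn3b) of the 4 had an unadjusted p under 0.05. Between the permethrin doses 0 of 4 were called, 0 had an unadjusted p under 0.05, and 0.00768% of all genes were called. The intervals of that dose difference were -0.18 to 0.27 for Scn3b, -0.18 to 0.30 for Scn7a, -0.52 to 0.07 for Scn3a and -0.74 to 0.48 for Scn4b. For the change of each diet's difference from 7 to 14 days, 0% of all genes passed with limma, and 0, 0 and 1 of the 4 (Scn3b with isoniazid) had an unadjusted p under 0.05 for permethrin 5000 ppm, 10000 ppm and isoniazid.

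A limma F test for any difference among the 8 groups called 1 of the 4, Scn3b, with a limma adjusted p of 0.0294 (unadjusted 0.000408), while 2.15% of all genes tested were called. The representative probe set of Scn7a had an adjusted p of 0.0859, Scn3a of 0.223 and Scn4b of 0.590. Centring each array on its median gave Scn3b an adjusted p of 0.590, and array weights brought Scn7a to 0.0244. The Scn3b call of this test was also lost without 7-day control replicate 2, without 7-day permethrin 10000 ppm replicate 2, and without any of 7-day isoniazid replicates 1 to 4. The representative probe set of Scn7a passed it without replicate 3 of permethrin 10000 ppm at 7 days or replicate 4 at 14 days.

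The other probe sets of Scn7a passed the same F test when each of the 27022 probe sets above the filter counted as a test, which called 1.17% of them. Their limma adjusted p was 0.00614 for the brighter and 0.00257 for the dimmer of them, against 0.126 for the representative probe set. Both stayed past the threshold in 39 of 39 fits that left out 1 animal (adjusted p at most 0.0129 and 0.00654), with the deposited scaling (0.0031 and 0.00311), with median centring (0.000638 and 0.00153) and without the 7 arrays of high Gapdh ratio (0.0398 and 0.046). On the same basis the Scn3b probe sets had adjusted p of 0.0444 and 0.0882, and the first was past the threshold in 15 of 39 fits that left out 1 animal. The F test does not say which groups differ, and no probe set of Scn7a passed against control in any of the 6 comparisons.

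Genes that work with sodium channels were listed with earlier results known, and 18 of 36 could be tested: 27 had a probe set. In each of the 14 comparisons limma called 0 of the 18, with 0 to 5 at an unadjusted p under 0.05. The count of 5 came with isoniazid, at 7 days and over both durations. The median log2 difference of the 18 genes against control was -0.07, -0.03 and -0.07 at 7 days (permethrin 5000 ppm, 10000 ppm, isoniazid) and 0.10, 0.07 and 0.13 at 14 days.

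Of further pore subunits on that list, Scn9a, of sensory neurons, and Scn10a were above the background limit on 0 arrays and Scn11a on 1. In the order of genes on the RefSeq assembly GRCm38.p6, Scn3a, Scn2a, Scn1a, Scn9a and Scn7a lie in a row on a single chromosome, with 3 coding genes between Scn2a and Scn1a and 0 between the other neighbours. By their brightest probe sets, the ends of that row, Scn3a and Scn7a, were above background on all 39 arrays, and the 3 genes between them on 8, 2 and 0.

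Scn2b, the beta2 subunit, was above the limit on 19 arrays, and its 6 differences from control ran from -0.44 to 0.22. Ank3 encodes ankyrin-G, which anchors sodium channels in the membrane. Its log2 difference with isoniazid at 7 days was -0.39 (SE 0.12, unadjusted p = 0.00288, limma adjusted p = 0.442). Against the same controls it was -0.25 at permethrin 5000 ppm and -0.28 at 10000 ppm (limma unadjusted p = 0.0469 and 0.0285). The lower Ank3 signal was thus not particular to isoniazid. At 14 days the isoniazid difference was -0.01. Atp1b1, a subunit of the sodium pump that returns sodium to the outside, had a difference of 0.27 over both durations of isoniazid (SE 0.10, adjusted p = 0.297). With permethrin at 7 days its differences were 0.16 and 0.21 at 5000 and 10000 ppm. At 14 days its group means were 11.02 in controls, 11.16 at each permethrin dose and 11.24 with isoniazid.

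None of the remaining genes named by the rule passed the threshold. Nedd4, a ubiquitin ligase that removes channels from the membrane, lay between -0.08 and 0.09 in the 6 comparisons with control. Scnn1g, of the epithelial sodium channel that clears fluid from the airspace, lay between -0.11 and 0.11. Fgf13, a fibroblast growth factor homologous factor that binds the channel inside the cell, lay between -0.47 and 0.06. Larger differences of the same subgroup, named after their values were seen, also missed the threshold. Fgf12 had 1.32 at permethrin 10000 ppm for 14 days (SE 0.43, limma adjusted p = 0.436), with 0.71 at 5000 ppm and 0.89 with isoniazid. These share the 14-day controls, whose Fgf12 mean of 3.37 lay below the mean background limit of 3.58. The 7-day groups had Fgf12 means from 4.16 to 4.42. Fgf11 had -0.87 with isoniazid at 7 days (SE 0.30, adjusted p = 0.538). The leak channel gene Nalcn was above the background limit on 5 arrays and was not tested.

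Across the 39 animals, with each group's mean removed, the 4 tested sodium channel genes were weakly related to each other. Pearson's r lay between 0.01 (Scn3b with Scn4b) and 0.33 (Scn3a with Scn4b), as a description. By the same measure the genes most like Scn3b were Galnt4 (r = 0.724), Arpp19 (0.708) and Myo1c (0.693), and those most like Scn7a were Antxr2 (0.702), Stab1 (0.665) and Rexo5 (0.648). For Scn3a they were Nrep (0.736), Mettl14 (0.719) and Zfp512 (0.678), and for Scn4b they were Cfap221 (0.774), 9530077C05Rik (0.744) and Kctd8 (0.723). Each was picked as the highest of 13020 genes over arrays that share their normalization, so no p is given.

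Scores of tissues that use sodium channels were set against the 4 genes in the same animals, giving 16 relations for cardiac muscle, skeletal muscle, neuron and Schwann cell markers. None passed the Benjamini-Hochberg adjustment in a permutation test. Each score is a mean over all markers with a probe set, dim ones included. Above the background limit on most arrays were 16 of 16 cardiac, 5 of 8 Schwann cell, 5 of 14 neuron and 4 of 12 skeletal muscle markers. The neuron and skeletal muscle scores, like Scn4b, thus lie near background, and their relations say little about tissue content. The smallest p of Pearson's r was that of Scn4b with the Schwann cell score (r = 0.321, permutation p = 0.0466, adjusted p = 0.521; rho = 0.284, permutation p = 0.0795, adjusted p = 0.318; r = 0.247 without the 2 animals farthest from the median score). The smallest p of Spearman's rho was that of Scn4b with the neuron score (rho = 0.390, permutation p = 0.0147, adjusted p = 0.236; r = 0.225, permutation p = 0.167, adjusted p = 0.667; r = 0.207 without the 2 farthest animals). For Scn3b the 4 values of r lay between -0.18 and 0.06.

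Some tissue scores differed in level between groups, though none passed the adjustment over 48 exact permutation tests. The smallest p such a test allows is 0.00794, so even a score fully apart from its controls could miss the adjusted threshold. The Schwann cell score at 14 days was 3.54 in controls and 4.06 and 4.12 at permethrin 5000 and 10000 ppm (exact p = 0.00794 for each, adjusted p = 0.127). The cardiac score at 14 days was 7.14 in controls, 8.15 and 8.16 at the permethrin doses, and 8.26 with isoniazid (exact p = 0.0397, 0.159 and 0.0476, adjusted p = 0.435, 0.524 and 0.435). The liver score at 14 days was 3.93 with isoniazid and 5.49 in controls (exact p = 0.00794, adjusted p = 0.127). The brown fat score at 14 days was 4.53 in controls and 5.03, 5.89 and 5.48 with permethrin 5000 ppm, 10000 ppm and isoniazid (exact p = 0.0952, 0.0873 and 0.103, adjusted p = 0.495 for each). Their part in the 14-day values of the sodium channel genes was not tested beyond the fit with cardiac and liver scores as covariates, in which the Scn3a difference at 10000 ppm was -0.70 (adjusted p = 0.696).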

How the data were processed

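Total RNA of each lung was made into biotin-labelled cRNA with a 3'-primed kit and hybridized, per the labels' protocols. The deposited values are signal intensity on a linear scale, computed by the authors with MAS5, per the submitters' processing notes (version: not given in the sources used here). Of 45101 probe sets 64 are controls, and 34945 carry 1 gene symbol in GEO's platform annotation, 932 several and 9160 none.

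The medians of the arrays lay between 17.4 and 26.2. Their ratio of 1.51 exceeded the limit of 1.5 for leaving the scaling as deposited, and log2 signals were therefore quantile normalized without a pseudocount. Genes were tested where the mean log2 signal of their brightest probe set lay in the upper 60% (3.43, a signal of 10.8). A model of 8 group means over 39 arrays was fitted with limma 3.58.1 in R 4.3.3 (eBayes with a mean-variance trend) and checked on simulated data. Scores were compared in Python 3.11.15 with scipy 1.17.1. P-values are two-sided, except those of the F test. Those of limma set differences against the spread between animals. Correlations used 100000 permutations. The number of arrays limits the precision.

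Members, lists and tests were chosen with earlier results of these data known. Named were all members, the 3 genes most like each tested member, partner genes past the threshold and the brightest partner of each subgroup, and markers as examples. Alternatives were the deposited scaling, median centring, a pseudocount of 4, no filter, the upper 40%, every probe set, the compared groups alone, a replicate block, array weights, no arrays of high Gapdh ratio, tissue covariates, the 90th percentile as background limit, and leaving out each animal.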

Additional observations from a re-analysis of the deposited data

Results flagged for a closer look

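In 4 of 56 gene and group combinations checked, 1 animal lay apart from the others of its group by Dixon's criterion. Chance flags about 1 in 20 groups. Scn4b read 0.80 in replicate 5 of permethrin 5000 ppm at 14 days, an array of high Gapdh ratio, and 3.58 to 4.04 in the others. The remaining 3 concern genes below the filter. Scn1a read 0.93 in replicate 5 of isoniazid at 14 days, also an array of high Gapdh ratio, and 3.06 to 3.82 in the others. Scn2a read 3.57 in replicate 2 of permethrin 10000 ppm at 7 days and 2.73 to 2.91 in the others. Scn8a read -1.83 in replicate 2 of the 14-day controls and 1.80 to 2.92 in the others.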

How the results depend on the processing

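Of 388 recomputed counts of sodium channel genes called, 359 equalled the count reported and 29 did not. For isoniazid at 7 days the count of 1 became 0 with the deposited scaling, with median centring, with every probe set above the filter tested and with only the compared groups fitted, and lay between 0 and 1 when single animals were left out. For the mean of both durations of isoniazid the count of 0 became 1 (Scn3b) with array weights (adjusted p = 0.0237) and without the 7 arrays of high Gapdh ratio (adjusted p = 0.0495), and lay between 0 and 1 without single animals: it was 1 without 7-day control replicates 3 or 4, 7-day isoniazid replicate 5, 14-day control replicates 4 or 5, or 14-day isoniazid replicate 4. For the test among all groups the count of 1 became 0 with median centring and 2 with array weights, and lay between 0 and 2 without single animals. Across the 52 log2 differences of the 4 tested genes, 82 of 1343 recomputed values had the other sign, and 0 of a called value did. The F test of single probe sets under other scalings, without arrays of high Gapdh ratio and without single animals was chosen after seeing the data. Scn4b was not tested under the stricter filter, and fitting only the compared groups was not possible for the test among all groups. The cause of these changes was not tested.

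Deviations of same-numbered treated and control animals correlated weakly and with either sign: 8 of 29 pairs were above 0.1, with r from -0.34 to 0.27. For replicate 4 at 7 days r was 0.193, 0.225 and 0.157 with permethrin 5000 ppm, 10000 ppm and isoniazid. For replicate 4 at 14 days it was 0.27, -0.235 and -0.336 in the same order. With the replicate number as a block, the counts of sodium channel genes called were unchanged in 14 of 14 comparisons, with 1 called for isoniazid at 7 days (Scn3b, adjusted p = 0.0424).

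Counts over all genes moved more. They ranged over settings from 8 to 25 (12 reported), 20 to 47 (31) and 1 to 72 (6) for permethrin 5000 ppm, 10000 ppm and isoniazid at 7 days, from 4 to 26 (17), 9 to 71 (28) and 1 to 7 (4) at 14 days, from 18 to 48 (29), 41 to 129 (65) and 15 to 68 (51) over both, and from 74 to 941 (280) among all groups. Between doses the range was 0 to 4 (1), and for changes with duration 0 to 1 (0). Signals near background limit what can be seen of Scn1a, Scn2a, Scn8a and Scn4b.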
